A study of Mus musculus with 62 samples.

Results

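The regions described here are the sites of changed CUT&Tag signal next to olfactory and vomeronasal receptor genes in mouse haematopoietic stem and progenitor cells (HSPCs). A site was a member if it lay on an autosome within 10 kb of a gene whose GENCODE M21 symbol starts with Olfr, Vmn1r or Vmn2r on mm10, whatever its signal. There were 1960 such genes, 1399 Olfr, 326 Vmn1r and 235 Vmn2r, and 19117 of the 1709082 listed autosomal sites of 14 comparisons were members. Of the 1960 genes, 1457 are annotated as protein-coding and the other 503 carry other annotations, pseudogenes among them.

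The study compared HSPCs that lack Daxx, a histone chaperone that places the variant histone H3.3 at heterochromatin, with controls. All mice were C57BL/6, carried the Mx1Cre transgene (Cre +/-) and received polyinosinic:polycytidylic acid (pI:pC), which switches the interferon-responsive Mx1 promoter on, so the controls had the same Cre and the same interferon stimulus. WT mice were Daxx +/+, Daxx-KO mice were Daxx F/F, and double-knockout (DKO) mice were Daxx F/F Pu.1 F/F, lacking also the myeloid and B-lineage transcription factor Pu.1. HSPCs were isolated from bone marrow with magnetic beads, as c-Kit+ cells without lineage markers, at 3, 8 or 24 weeks post injection (w.p.i.). The Daxx allele was made in C57BL/6N and the Cre and Pu.1 lines in C57BL/6J, so passenger DNA from either substrain can accompany an allele. The comparisons at 3 and 24 w.p.i. had 2 libraries per group and those at 8 w.p.i. had 3, each library of a comparison from a different mouse as far as the labels number the mice.

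Olfactory receptors (Olfr) are G-protein-coupled receptors with which neurons of the nose detect odorants, and the Vmn1r and Vmn2r families serve the vomeronasal organ, which detects pheromones. The genes lie in tandem arrays. Each olfactory sensory neuron expresses a single Olfr allele, and in those neurons the silent Olfr arrays are packed into heterochromatin that carries H3 lysine 9 trimethylation (H3K9me3). Blood progenitors have no known use for most of these receptors. H3K27me3 is the mark of Polycomb repression, and H3K27ac marks active enhancers and promoters.

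The receptor genes formed 98 clusters when neighbours within 500 kb were joined, and 27 clusters with at least 20 genes held 83.9% of them. The share was 91.7% for Vmn1r, 87.0% for Olfr and 54.5% for Vmn2r. The territory within 10 kb of a receptor gene covered 40.2 Mb, 1.63% of the autosomes. It was poorer in G and C (38.5% against 41.9% over the autosomes) and richer in repeats, with 47.2% of bases soft-masked against 32.6%.

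In this series 54 of the 62 libraries entered the 14 comparisons. The 8 DKO libraries at 24 w.p.i. and 1 comparison of H3K27me3 between Daxx-KO and WT at 8 w.p.i., whose header names H3K9me3 libraries as its controls, were not analysed here. The tables list only sites that had passed the test of the authors, so a listed site is by construction a changed one, and a region without a site has no value. The data therefore give the direction of change, not the share of receptor genes that carry a mark, and neither the identity of the cells nor the loss of Daxx could be checked from marker genes: from 0 to 3 sites per comparison lay within 10 kb of Daxx and from 0 to 15 within 10 kb of Spi1, which encodes Pu.1. Mean reads per 600-bp window lay between 1.21 and 33.78 (3 w.p.i.), 0.20 and 3.29 (8 w.p.i.) or 3.97 and 10.30 (24 w.p.i.). The WT libraries of H3.3 and Pu.1 at 3 w.p.i. were unequal, with 22.88 against 3.06 and 33.78 against 2.75 reads per window. The normalized count of a site is its reads divided by a constant of the library, and these scales cannot be compared between tables.

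Sequences of 2 sites show how unlike in base composition the gained and lost sites could be. Olfr10 had the widest gap between groups among gained H3K9me3 sites at 3 w.p.i., and 300 bases from the middle of that site are shown (GRCm38.p6, chr11:49307676-49307975, plus strand, inside the gene and outside its exons). The second, from Vmn2r-ps111 (chr14:51382851-51383150, plus strand), is from the middle of a lost site chosen after values were seen, as the widest gap among lost sites with at least 50% G and C and little repeat. Capitals mark CG dinucleotides, of which the first has 2 and the second 15, at 48% and 61.7% G and C. The bases are those of the RefSeq assembly.
Olfr10: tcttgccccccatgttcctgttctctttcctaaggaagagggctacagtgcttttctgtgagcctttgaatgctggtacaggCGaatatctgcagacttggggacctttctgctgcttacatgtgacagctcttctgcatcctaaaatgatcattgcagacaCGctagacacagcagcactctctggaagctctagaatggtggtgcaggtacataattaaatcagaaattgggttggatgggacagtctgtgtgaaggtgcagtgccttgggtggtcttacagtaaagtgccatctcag
Vmn2r-ps111: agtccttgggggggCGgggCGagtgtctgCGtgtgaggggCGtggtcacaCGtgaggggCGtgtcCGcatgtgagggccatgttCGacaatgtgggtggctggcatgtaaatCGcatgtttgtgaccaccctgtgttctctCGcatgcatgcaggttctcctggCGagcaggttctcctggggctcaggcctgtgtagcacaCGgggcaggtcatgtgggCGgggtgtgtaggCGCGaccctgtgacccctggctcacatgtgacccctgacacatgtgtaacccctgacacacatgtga

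The promoters of 4 receptor genes (250 bases before to 50 after the annotated start, from RefSeq on GRCm38.p6, minus strand in each) are those of genes named in the results. Olfr522 (chr7:140162899-140163198) lies under the widest H3K27me3 loss in DKO cells, with its 3 CG dinucleotides in capitals. Vmn1r118 (chr7:20912298-20912597), Vmn1r101 (chr7:20442544-20442843) and Vmn1r149 (chr7:22438180-22438479) hold the Pu.1 motif GAGGAAGT, in capitals, under Pu.1 sites at 24 w.p.i.
Olfr522: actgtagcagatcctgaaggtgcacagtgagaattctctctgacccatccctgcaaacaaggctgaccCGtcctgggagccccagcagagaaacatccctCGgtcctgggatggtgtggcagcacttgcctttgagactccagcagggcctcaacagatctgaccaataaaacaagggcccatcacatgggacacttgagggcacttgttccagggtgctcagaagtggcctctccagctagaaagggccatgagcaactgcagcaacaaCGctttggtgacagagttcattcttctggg
Vmn1r118: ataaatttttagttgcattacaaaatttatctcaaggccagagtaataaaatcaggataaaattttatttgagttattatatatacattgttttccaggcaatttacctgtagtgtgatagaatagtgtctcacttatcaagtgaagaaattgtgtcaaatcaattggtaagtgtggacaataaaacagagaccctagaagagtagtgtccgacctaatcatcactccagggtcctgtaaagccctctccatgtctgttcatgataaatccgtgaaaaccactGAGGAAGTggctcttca
Vmn1r101: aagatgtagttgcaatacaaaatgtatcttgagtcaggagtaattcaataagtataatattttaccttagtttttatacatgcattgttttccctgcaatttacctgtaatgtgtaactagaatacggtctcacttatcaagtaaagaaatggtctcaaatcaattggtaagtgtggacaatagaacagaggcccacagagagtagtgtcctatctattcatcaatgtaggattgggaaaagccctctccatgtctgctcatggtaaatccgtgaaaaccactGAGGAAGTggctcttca
Vmn1r149: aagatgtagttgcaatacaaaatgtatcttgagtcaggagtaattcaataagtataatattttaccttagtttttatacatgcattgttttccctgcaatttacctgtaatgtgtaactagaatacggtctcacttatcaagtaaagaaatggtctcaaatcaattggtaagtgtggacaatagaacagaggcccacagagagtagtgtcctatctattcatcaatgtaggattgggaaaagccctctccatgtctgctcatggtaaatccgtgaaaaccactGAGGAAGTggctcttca

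To ask how H3K9me3 over the receptor arrays differed after Daxx loss, the listed sites were split by direction, where gained means that the mean of the first-named group was higher and lost that it was lower. At 3 w.p.i. most listed receptor sites were gained in Daxx-KO cells, as were most listed sites elsewhere. Of 1677 receptor sites, 1399 (83.4%, Wilson 95% interval 81.6–85.1) were gained, beside 78.9% of all listed autosomal sites. At 8 w.p.i., 1207 of 1903 (63.4%, 61.2–65.6) were gained, beside 66.0% of all. At 24 w.p.i. the direction was the opposite, and only 846 of 2632 (32.1%, 30.4–34.0) were gained, beside 48.1% of all. The intervals cover counting error only, since neighbouring sites are not independent, and no test was run on sites selected for their difference. In bulk cells, fewer cells with a mark and less mark per cell cannot be told apart.

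**Figure D1:**
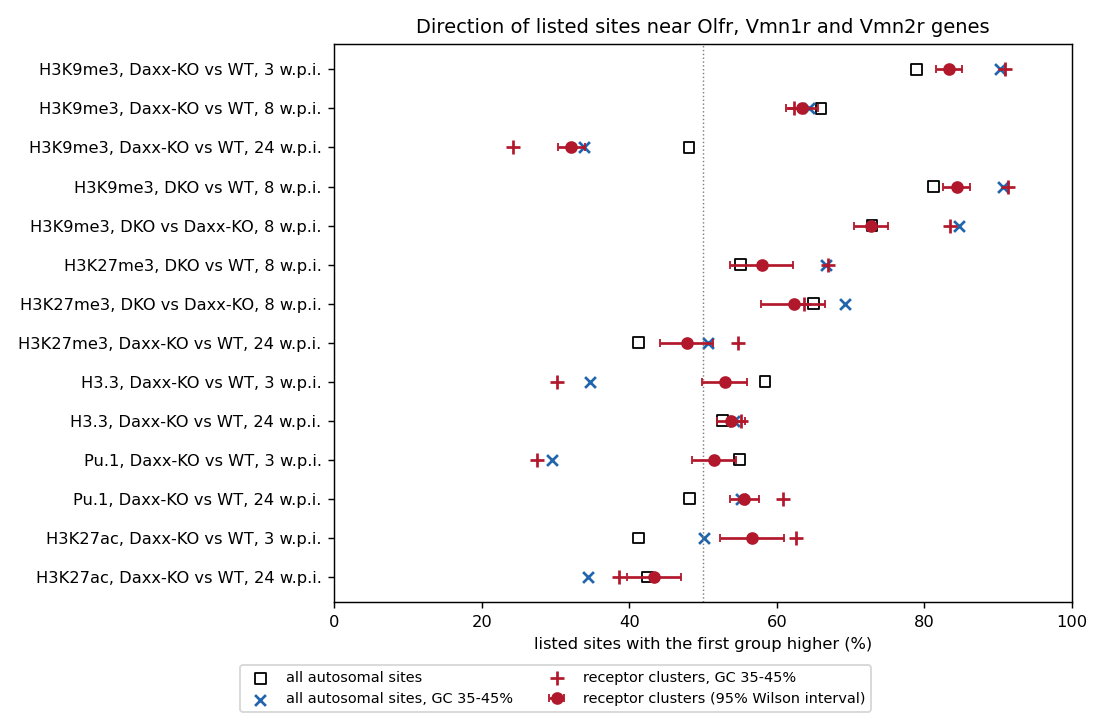
Share of listed sites with the first group higher (x axis, percent) in each of 14 comparisons (rows). Red circles are receptor-cluster sites with 95% Wilson intervals, black squares all autosomal sites, blue crosses and red plus signs the same for sites of 35–45% GC, and the dotted line is at 50%; the H3K9me3 share of receptor clusters falls from 83.4 at 3 w.p.i. to 32.1 at 24 w.p.i.

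The listed sites crowded into receptor territory for H3K9me3 more than for the other marks. Their density was 1.79 times that of the autosomes at 3 and at 8 w.p.i., with 41.8 and 47.4 sites per Mb, and 1.07 times at 24 w.p.i. with 65.5 per Mb. Territory of zinc-finger (Zfp) genes had 39.4, 45.5 and 92.1 sites per Mb at these times, and DNA over 10 kb from any gene 31.3, 36.6 and 60.5. Territory of other chemosensory receptors (Taar, Tas1r, Tas2r and Fpr) had 43.7, 38.5 and 62.1. The density was therefore not particular to the receptor arrays. A site lay within reach of 1100 receptor genes (56.1%) at 3 w.p.i., 1139 (58.1%) at 8 w.p.i. and 1428 (72.9%) at 24 w.p.i., while 267 genes had no H3K9me3 site of Daxx-KO against WT at any time. Over all 14 comparisons 1955 genes had at least 1 site, with a median of 6 comparisons per gene. Only 4 had a site in all 14, Vmn2r7 and the pseudogenes Vmn2r-ps109, Vmn2r-ps15 and Vmn2r-ps19.

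The library means run over these same listed sites, so their order largely follows from the counts above and is no second line of evidence. At 3 w.p.i. the mean normalized count per receptor site was 20.8 and 22.3 in the Daxx-KO libraries against 12.1 and 11.5 in WT. At 8 w.p.i. it was 15.8, 16.7 and 22.8 in Daxx-KO against 11.4, 15.4 and 13 in WT, with the lowest Daxx-KO library just above the highest WT library. At 24 w.p.i. it was 52.3 and 54.4 in Daxx-KO against 69.6 and 62.0 in WT. Groups did not overlap at any of the 3 times, with Daxx-KO above WT at 3 and 8 w.p.i. and below at 24 w.p.i. Receptor sites took 2.46% and 2.48% of all counts at listed sites in the Daxx-KO libraries at 3 w.p.i. and 1.63% and 1.57% in the WT libraries, with overlap at 8 w.p.i. (2.57%, 2.57% and 2.80% against 2.45%, 2.51% and 2.79%), but at 24 w.p.i. 1.23% and 1.12% in Daxx-KO against 1.34% and 1.36% in WT.

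**Figure D2:**
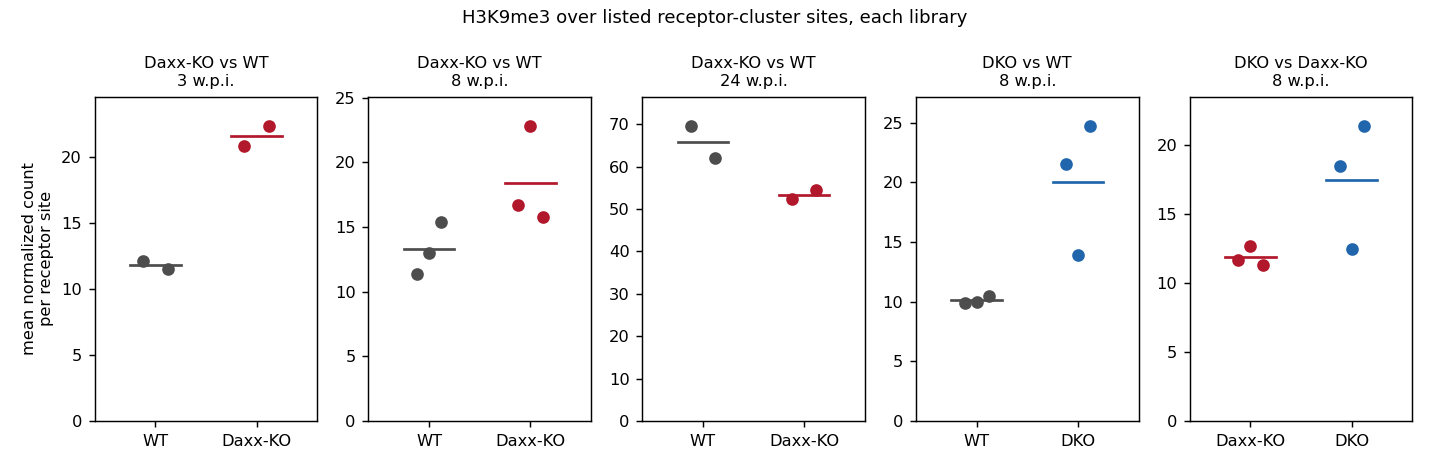
Mean normalized H3K9me3 count per listed receptor-cluster site (y axis, from 0) in each library, 1 panel per comparison, with a point for each library and a bar at the group mean. Scales differ between panels; Daxx-KO points lie above WT at 3 and 8 w.p.i. and below at 24 w.p.i., and 1 of the 3 DKO libraries (13.9 against WT) sits below the other DKO libraries.

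The size of single changes was similar to that elsewhere at 3 and 8 w.p.i. and smaller at 24 w.p.i. The median log2 fold change of gained receptor sites was 1.99 at 3 w.p.i. (2.04 over all sites), 1.79 at 8 w.p.i. (1.88) and 1.36 at 24 w.p.i. (1.97), with 1 added to each group mean. For lost sites it was −2.05 (−2.01), −2.06 (−2.05) and −1.35 (−1.55). At 8 w.p.i., 88.4% of receptor sites had groups that did not overlap, beside 89.0% of all sites. An exact permutation test over libraries cannot go below 0.33 with 2 against 2 or 0.1 with 3 against 3 at a single site, so none was used.

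Olfr and Vmn2r sites had the same direction as the whole at each time, and Vmn1r sites did at 3 and 24 w.p.i. At 3 w.p.i. 85.2% of 1039 Olfr sites, 76.1% of 234 Vmn1r sites and 83.2% of 404 Vmn2r sites were gained. At 8 w.p.i. the shares were 67.4%, 52.8% (47.3–58.3 for Vmn1r, which spans an even split) and 61.7%, and at 24 w.p.i. 30.9%, 38.3% and 30.5%. Sites mostly lay between genes: 16.7% touched a receptor exon at 3 w.p.i. and 73.1% lay outside every receptor gene, and 88.2% of the 136 sites within 1 kb of a receptor start were gained, close to the other places.

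Base composition moved with the direction. At 3 w.p.i. 96.5% of the receptor sites under 35% GC were gained, 83.4% of those from 40% to 45%, 55.4% from 45% to 50% and 9.30% of those at 50% or more. The same shares over all sites were 98.3%, 84.5%, 55.8% and 19.5%. At 24 w.p.i. the order was turned, with 15.4% gained under 35% GC and 58.5% at 50% or more, beside 19.4% and 67% of all sites, whereas at 8 w.p.i. the shares stayed between 62.0% and 66.9% in every bin. Among sites of 35% to 45% GC, the receptor share was 90.9% at 3 w.p.i. beside 90.3% of all, 62.3% beside 64.4% at 8 w.p.i., and 24.3% beside 33.8% at 24 w.p.i. At 3 and 8 w.p.i. the receptor clusters therefore lay near all sites of like composition, and at 24 w.p.i. they lay below them. The part that GC content has in these directions was not tested.

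**Figure D3:**
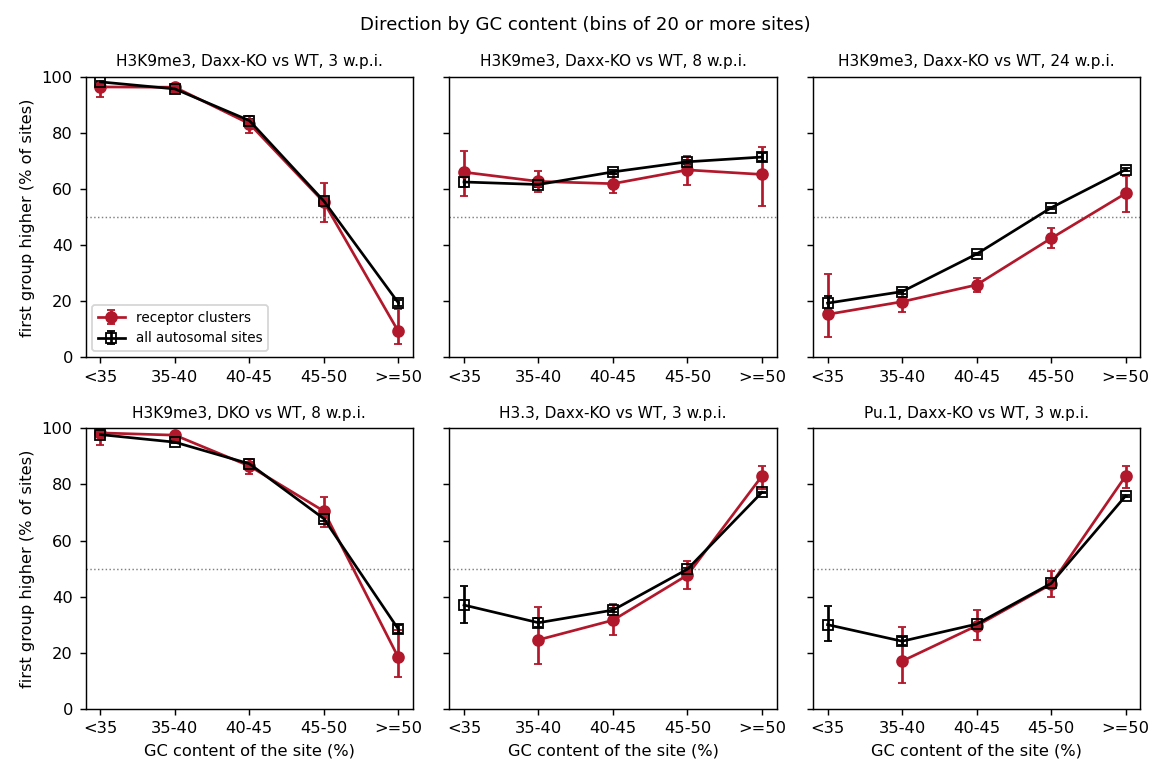
Share of listed sites with the first group higher (y axis, percent) by GC content of the site (x axis, 5 bins), for receptor-cluster sites and for all autosomal sites in 6 comparisons, with 95% Wilson intervals and bins of at least 20 sites. For H3K9me3 at 3 w.p.i. the receptor share falls from 96.5 to 9.30 as GC rises, at 24 w.p.i. it rises, and for H3.3 and Pu.1 at 3 w.p.i. it rises to 83.0.

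Other sets of sites put these shares beside silent and clustered DNA of other kinds. Sites near Zfp genes, which encode zinc-finger proteins and also lie in H3K9me3-rich arrays, were gained in 54.1% at 3 w.p.i., 30.4% at 8 w.p.i. and 45.8% at 24 w.p.i. Sites near the other chemosensory receptors (Taar, Tas1r, Tas2r and Fpr) were few, and 48 of 50, 34 of 44 and 33 of 71 were gained. Sites over 10 kb from any gene were gained in 81.6%, 66.5% and 38.9%, so the receptor clusters followed gene-free DNA more closely than they followed Zfp arrays.

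The same receptor sites were compared across times, which share no numbered mouse. Between 3 and 8 w.p.i., 290 overlapping pairs (16.4% of the earlier list, 15.0% of the later) had the same direction in 75.2%, beside 77.9% of all such pairs. Between 3 and 24 w.p.i., 321 pairs (17.9% and 11.9%) had the same direction in 40.2%, beside 56.8% of all. Of the pairs gained at 3 w.p.i., 163 were lost and 63 gained at 24 w.p.i., and of the pairs lost at 3 w.p.i., 66 were lost and 29 gained. By gene, 719 receptor genes had H3K9me3 sites at all 3 times. Of these, 242 had only gained sites at 3 w.p.i. and only lost sites at 24 w.p.i., against 8 with the opposite. Such an imbalance is largely set by the shares gained at each time, so it does not show that genes switched. No such count was made for other genes. All sites were gained at all 3 times at 37 genes and lost at 24.

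A few genes kept their direction at all 3 times, and the 8 per direction with the most sites are described. Gained throughout were Vmn2r25 with 12 sites, its overlapping neighbour Vmn2r24 with 11 mostly shared sites, the pseudogene Vmn2r-ps18 and Olfr211 with 11 each, Olfr10 with 10, Vmn1r217 and Olfr1308 with 8 each, and Vmn1r1 with 7. Each encodes or derives from a receptor, with no ligand given here. These 16 genes were chosen for their direction, so what follows describes them and tests nothing.

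Olfr10 on chromosome 11 showed the widest gain of all receptor sites at 3 w.p.i., over 4650 bp of the gene (chr11:49305501-49310150). The normalized counts there were 535 and 493 in Daxx-KO against 215 and 197 in WT. Summed over its listed sites, Olfr10 had 584 and 537 against 230 and 206 at 3 w.p.i., 262, 215 and 247 against 126, 111 and 82.7 at 8 w.p.i., and 1102 and 1159 against 650 and 649 at 24 w.p.i. Every Daxx-KO library was above every WT library at each time. Vmn2r-ps18 on chromosome 4 had sums of 264 and 272 against 135 and 112 at 3 w.p.i., of 274, 508 and 209 against 139, 141 and 157 at 8 w.p.i., and of 916 and 991 against 518 and 550 at 24 w.p.i., again without overlap. For H3K27me3, by contrast, Olfr10 had 4 sites at 24 w.p.i., all lost, and 2 in DKO against WT, both lost. Vmn2r25 on chromosome 6 had 344 and 342 against 136 and 132 at 3 w.p.i. and 541 and 367 against 250 and 277 at 24 w.p.i. At Vmn1r217 on chromosome 13 the counts were small, with sums of 44.2 and 50.0 in Daxx-KO against 5.80 and 4.38 in WT at 3 w.p.i., but here too the groups were apart.

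Lost throughout were Vmn2r63 with 32 sites, Olfr1220, Olfr1225 and Vmn2r35 with 13 each, Olfr1219 and Olfr1229 with 11 each, and Olfr1226 and the pseudogene Vmn1r-ps31 with 9 each. The 5 Olfr genes among them are neighbours on chromosome 2 and share some sites. Vmn2r63 on chromosome 7 had summed counts of 162 and 148 in Daxx-KO against 431 and 500 in WT at 3 w.p.i. At 8 w.p.i. the sums were 16.6, 29.4 and 43.4 against 168, 139 and 163, and at 24 w.p.i. 701 and 618 against 1671 and 1614. Olfr1225 had 2.33 and 13.3 against 70.7 and 90.1 at 3 w.p.i., 39.5, 13.4 and 32.5 against 98.8, 98.7 and 181 at 8 w.p.i., and 108 and 194 against 570 and 437 at 24 w.p.i. Olfr1219 was read in no Daxx-KO library at its single site at 3 w.p.i., where the WT libraries had 9.28 and 7.0. None of the 8 lost genes had a listed H3K27me3 site in any comparison, where 16.4%, 17.2% and 23.7% of all receptor genes had one in the 3 comparisons. The 5 Olfr genes lie in the largest cluster, which held few H3K27me3 sites (given below). The 8 genes are therefore not separate cases, and a link between the marks was not tested.

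**Figure D4:**
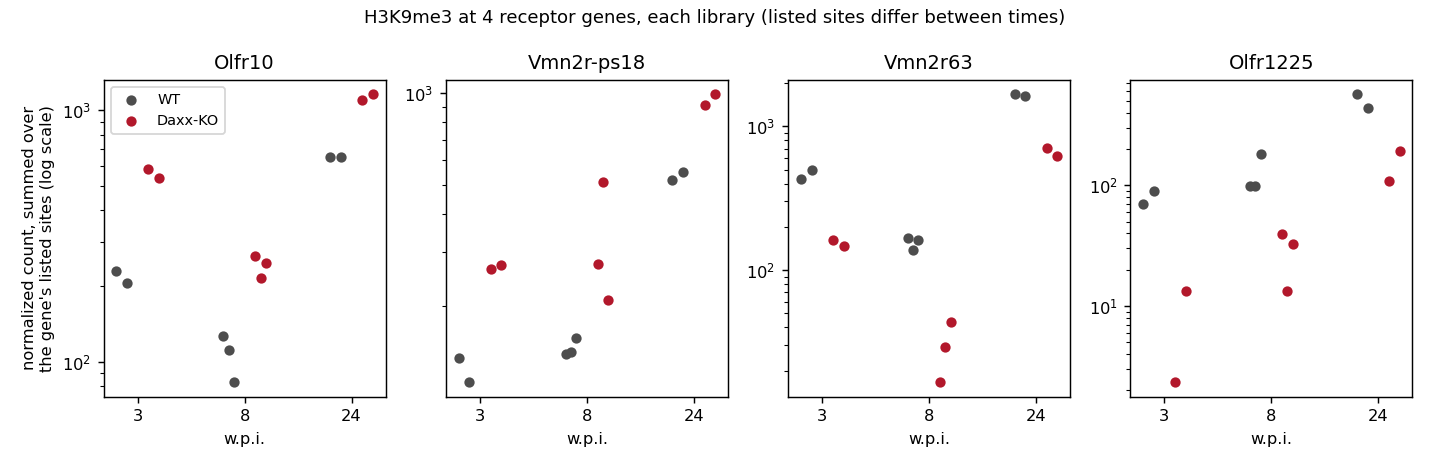
Normalized H3K9me3 counts summed over the listed sites of Olfr10, Vmn2r-ps18, Vmn2r63 and Olfr1225 (log y axis) in each WT and Daxx-KO library at 3, 8 and 24 w.p.i. Points are libraries; the listed sites and the scale differ between times, and within each time all Daxx-KO points lie above WT for the first pair of genes and below WT for the other pair.

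The single sites with the widest gap were named by a rule that required groups that do not overlap. Lost H3K9me3 at 3 w.p.i. was widest 7662 bp from Olfr49 on chromosome 14, with 131 and 123 against 442 and 450. At 8 w.p.i. the widest gain was in the pseudogene Vmn2r-ps104 (307, 291 and 217 against 30.0, 91.2 and 125) and the widest loss near Vmn2r-ps3 (82.8, 139 and 97.6 against 240, 290 and 206). At 24 w.p.i. the widest gain was near Vmn2r125 (3736 and 3062 against 1439 and 1882) and the widest loss near Olfr147 (166 and 176 against 358 and 364). Most of these lie beside rather than in receptor genes, and those near Vmn2r-ps3 and Olfr147 were 91.6% and 81.2% soft-masked. How reads of repeat copies were placed was not tested.

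Large clusters agreed in direction at the early and late times. At 3 w.p.i. all 23 clusters with at least 20 sites had over 50% gained (57.4% to 100%, median 85.7%), and at 24 w.p.i. 28 of 31 had under 50% (13% to 55.6%). At 8 w.p.i. 21 of 25 were over 50%, from 29.1% to 98.4%. Over all listed autosomal sites, 78.9% were gained at 3 w.p.i., 66.0% at 8 w.p.i. and 48.1% at 24 w.p.i. Most of these clusters were thus on the same side of 50% as all sites, and the counts below stand beside the same shares. The largest cluster, 287 Olfr genes on chromosome 2 from 85.3 to 90.4 Mb, had 201 of 239 gained at 3 w.p.i., 143 of 268 at 8 w.p.i. and 66 of 377 at 24 w.p.i. The 52 Olfr genes on chromosome 7 from 108 Mb had 87 of 91, 93 of 111 and 20 of 103, and 46 Olfr genes on chromosome 2 from 111 Mb had 91 of 94, 71 of 95 and 20 of 80. The 156 Olfr genes on chromosome 7 from 102 to 105 Mb, the second largest cluster, held few sites for their number, with 26 of 37, 29 of 35 and 33 of 73 gained.

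The largest Vmn1r array went down at 8 w.p.i. in Daxx-KO cells and up in DKO cells. The 78 Vmn1r genes on chromosome 7 from 20.1 to 24.1 Mb had 42 of 61 sites gained at 3 w.p.i., only 25 of 86 at 8 w.p.i. and 49 of 115 at 24 w.p.i. Of all listed autosomal sites, 78.9%, 66.0% and 48.1% were gained at these times. In DKO cells the array had 130 of 135 gained against WT and 124 of 130 against Daxx-KO, beside 81.2% and 72.9% of all sites. At 3 w.p.i. 39 of its 44 H3.3 sites and 35 of its 38 Pu.1 sites were gained in Daxx-KO cells, beside 58.4% and 54.9% of all. The H3.3 and Pu.1 libraries have 3 numbered mice in common. At 24 w.p.i. 60 of 119 and 64 of 108 were gained, beside 52.6% and 48.2% of all. Among clusters with at least 20 sites, this array had the lowest H3K9me3 share at 8 w.p.i. and the highest H3.3 and Pu.1 shares at 3 w.p.i. Part of the largest Olfr cluster lies within 5 Mb of Spi1 on chromosome 2. In Daxx-KO cells, 353 H3K9me3 sites there were gained in 16.7% at 24 w.p.i., beside 34.5% of the other receptor sites. At 8 w.p.i. 244 sites were gained in 52.5%, beside 65.0%. At 3 w.p.i. 217 sites there were gained in 84.3%, close to the 83.3% of the other receptor sites. The labels name a Pu.1 F/F allele only for DKO mice. In DKO cells the share near Spi1 was 78.5% against WT, beside 85.2% of the other receptor sites. Against Daxx-KO it was 66.2%, beside 73.7%.

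**Figure D5:**
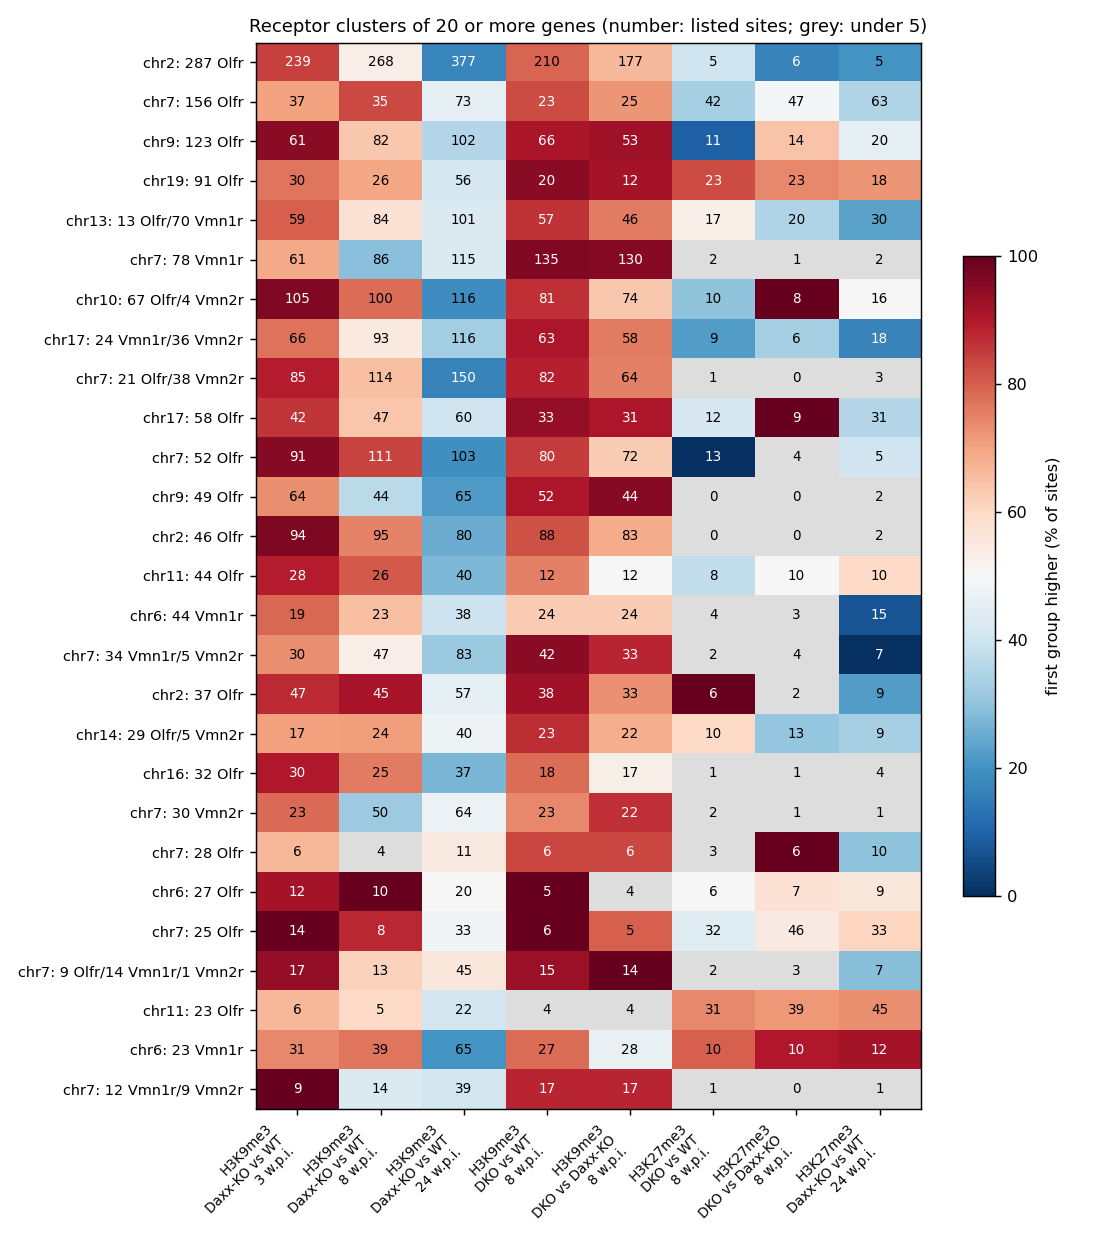
Share of gained sites (colour, percent) in the 27 receptor clusters with at least 20 genes (rows) for 5 H3K9me3 and 3 H3K27me3 comparisons (columns). The number in a cell is its count of listed sites, and cells with under 5 sites are grey; H3K9me3 at 24 w.p.i. is on the lost side in most rows, and H3K27me3 cells are mostly grey or hold few sites.

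To ask what the added loss of Pu.1 changed, DKO cells were compared with WT and with Daxx-KO at 8 w.p.i. DKO cells had more H3K9me3 at most listed receptor sites against either. Of 1528 sites against WT, 1290 (84.4%, 82.5–86.2) were gained, beside 81.2% of all, and of 1359 sites against Daxx-KO, 990 (72.8%, 70.4–75.1), beside 72.9% of all. The comparisons share libraries with each other and with Daxx-KO against WT, so no overlap between them is given. Densities were 2.03 and 2.08 times that of the autosomes. Groups did not overlap at 64.4% of receptor sites against WT (65.6% of all) and at 70.5% against Daxx-KO (69.6%).

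The DKO libraries differed in depth, with 0.67, 0.21 and 3.28 reads per window in replicates 1, 2 and 3. Their mean counts per receptor site were 21.5, 24.7 and 13.9, and those of WT were 9.87, 10.5 and 10.0. Against Daxx-KO they were 18.5, 21.4 and 12.5, beside 11.3, 11.7 and 12.7, so DKO replicate 3 lay within the range of Daxx-KO. Without DKO replicate 1 or 2 the gained share was 80.2% and 78.0% against WT, and 69.5% and 67.5% against Daxx-KO. The deepest DKO library was the lowest, and the part of depth in these values was not tested.

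Vmn1r sites were gained most often in DKO, in 88.5% of 323 against WT and 80.8% of 297 against Daxx-KO, beside 83.3% and 69.9% of Olfr sites and 83.5% and 72.2% of Vmn2r sites. Many of these Vmn1r sites lay in the chromosome 7 array described above, where nearly all were gained in DKO. The family shares without that array are not given. Of 117 sites within 1 kb of a receptor start, 94.0% were gained against WT. By GC content the shares ran from 98.4% under 35% to 18.3% at 50% or more against WT (97.8% and 28.4% of all sites). The widest gain against WT was 1430 bp from Vmn2r-ps18, with 226, 177 and 176 against 65.6, 74.5 and 59.1, and the widest loss again near Olfr49, with 32.3, 51.4 and 38 against 191, 211 and 121. Against Daxx-KO, a site 4380 bp from Vmn2r-ps19 was gained (61.1, 54.7 and 88.2 against 15.5, 23.8 and 17.9) and a site 8669 bp from Olfr338 was lost (87.5, 94.8 and 85.0 against 177, 195 and 171).

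H3K27me3 sites were sparse in the receptor arrays. Their density was 0.542 and 0.534 times that of the autosomes in DKO against WT and against Daxx-KO, and 0.347 times in Daxx-KO against WT at 24 w.p.i. In DKO against WT 296 of 510 receptor sites (58.0%, 53.7–62.2) were gained, beside 55.1% of all. Against Daxx-KO 302 of 485 (62.3%, 57.9–66.5) were gained, beside 65.0%. At 24 w.p.i. 362 of 758 (47.8%, 44.2–51.3) were gained in Daxx-KO cells, beside 41.2%. The mean count per receptor site at 24 w.p.i. was 70.1 and 75 in Daxx-KO against 77.9 and 78.0 in WT, without overlap, whereas the groups overlapped in both DKO comparisons. Groups did not overlap at 90.0% of receptor sites in DKO against WT (89.4% of all) and at 83.5% against Daxx-KO (84.2%).

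H3K27me3 sites touched receptor genes more often than H3K9me3 sites did, though 51.1% to 54.5% lay outside them. From 31.8% to 33% touched a receptor exon, against 13.6% to 18.4% of H3K9me3 sites, and only 19.6% to 25.2% were at least 50% soft-masked. Olfr territory had 17.5 sites per Mb in DKO against WT, Vmn1r 6.01 and Vmn2r 4.55. At 24 w.p.i. the families differed in direction, with 54.7% of 596 Olfr sites, 25.7% of 74 Vmn1r sites and 19.3% of 88 Vmn2r sites gained in Daxx-KO cells. In DKO against WT 60.4% of 429 Olfr, 24 of 40 Vmn1r and 13 of 41 Vmn2r sites were gained.

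H3K27me3 sites were spread thinly over 65, 63 and 75 clusters in the 3 comparisons, of which 5, 6 and 12 held at least 20. Over all listed autosomal sites, 55.1% were gained in DKO against WT, 65.0% against Daxx-KO and 41.2% in Daxx-KO at 24 w.p.i. The clusters named here have shares to either side of these, and some hold under 20 sites. The 23 Olfr genes on chromosome 11 from 58.5 to 58.8 Mb had 23 of 31 sites gained in DKO against WT, 28 of 39 against Daxx-KO and 33 of 45 in Daxx-KO at 24 w.p.i. The 91 Olfr genes on chromosome 19 from 11.8 to 13.9 Mb had 19 of 23, 17 of 23 and 13 of 18. In the other direction, the 52 Olfr genes on chromosome 7 from 108 Mb had 0 of 13 gained in DKO against WT, and the Vmn1r-rich cluster on chromosome 13 from 21.1 to 23.3 Mb had 7 of 30 at 24 w.p.i. The 287-gene cluster on chromosome 2 had only 5, 6 and 5 H3K27me3 sites.

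Olfr522 on chromosome 7, whose promoter is printed above, carried the widest H3K27me3 loss in DKO cells. Over 6150 bp across its exon (chr7:140159951-140166100) the counts were 58.9, 43.6 and 38.4 in DKO and 190, 228 and 224 in WT. Another site 2299 bp away had 95.4, 100 and 57.3 in DKO against 164, 176 and 179 in Daxx-KO. Both sites were picked for groups that do not overlap. Gains were widest near Olfr1417 on chromosome 19 against WT (276, 122 and 132 against 43.7, 26.8 and 25.4) and near Olfr225 on chromosome 11 against Daxx-KO (84.1, 197 and 135 against 35.9, 34.9 and 27.2). At 24 w.p.i. the longest receptor site, 7400 bp beside Olfr1379-ps1, was gained in Daxx-KO cells (1630 and 1773 against 633 and 812), and a site over the pseudogene Vmn2r-ps17 was lost (670 and 611 against 1336 and 1870).

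Where both repressive marks had overlapping receptor sites at 24 w.p.i., in the same 4 mice, 34.0% of 100 pairs had the same direction, beside 42.9% of all pairs. Of these pairs 50 had H3K27me3 lost and H3K9me3 gained, beside 9005 of 21386 pairs over all sites. In DKO against WT at 8 w.p.i., in the same 6 mice, there were only 11 pairs, 9 of them with H3K27me3 lost and H3K9me3 gained. Over all sites this held for 262 of 440 pairs, so it was also the most common combination outside the receptor arrays.

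H3.3 and Pu.1 were compared between Daxx-KO and WT at 3 and 24 w.p.i. In the receptor clusters both were close to an even split. H3.3 was gained at 550 of 1038 sites at 3 w.p.i. (53%, 49.9–56.0), beside 58.4% of all, and at 1417 of 2635 at 24 w.p.i. (53.8%, 51.9–55.7), beside 52.6%. Pu.1 was gained at 554 of 1076 sites at 3 w.p.i. (51.5%, 48.5–54.5), beside 54.9% of all, and at 1294 of 2327 at 24 w.p.i. (55.6%, 53.6–57.6), beside 48.2%. Densities were 0.450 and 0.633 times that of the autosomes for H3.3 and, for Pu.1, 0.421 and 0.562 times. The mean H3.3 count per receptor site at 3 w.p.i. was 41.8 and 44.2 in Daxx-KO against 39.3 and 41 in WT, and that of Pu.1 46.5 and 47.3 against 43.1 and 44.9. At 24 w.p.i. Pu.1 was 40.6 and 41.9 against 32.5 and 32.8, so Daxx-KO libraries were above WT at both times, by little at the first. Leaving out either of the unequally deep WT libraries, or either Daxx-KO library, gave shares of 53% to 53.1% for H3.3 and 51.5% to 52% for Pu.1 at 3 w.p.i.

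The even split at 3 w.p.i. joined sites of opposite direction. H3.3 was gained at 24.6% of the 65 receptor sites from 35% to 40% GC and at 83.0% of the 318 sites at 50% or more, and Pu.1 at 17% of 53 and 83.0% of 342. These are near the shares of all sites (30.7% and 77.2% for H3.3, 24.1% and 75.9% for Pu.1). In sites under 50% soft-masked H3.3 was gained in 41%, and in the others in 69.1%; for Pu.1 the shares were 39.3% and 67.5%. At 24 w.p.i. the order by GC was the opposite for Pu.1, with 76.5% gained under 35% and 45.3% at 50% or more.

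H3.3 and Pu.1 at 3 w.p.i., with 3 numbered mice in common, overlapped at 311 pairs of receptor sites, 85.2% of them in the same direction, beside 77.3% of all pairs. H3.3 and H3K9me3 at 3 w.p.i., with 1 mouse in common, had 97 pairs, of which only 27.8% agreed, beside 24.5% of all. Of these, 51 had H3.3 gained and H3K9me3 lost, beside 2907 of 5642 pairs over all sites. Between 3 and 24 w.p.i. the directions of H3.3 agreed at 52.7% of 283 pairs and those of Pu.1 at 49.7% of 290, beside 51.2% and 48.1% of all pairs.

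Olfr806 on chromosome 10 had the widest gain of both factors at 3 w.p.i., at the same window over its exon. H3.3 was 439 and 457 in Daxx-KO against 33 and 26.2 in WT, and Pu.1 was 457 and 532 against 33.4 and 51.1. The rule that picked the site required that the groups do not overlap. The H3.3 and Pu.1 libraries have 3 numbered mice in common, so these gains are not independent. The same window was a listed H3K27ac site at 24 w.p.i., lost in Daxx-KO cells (484 and 416 against 661 and 686). A listed H3K9me3 site inside it was gained in Daxx-KO cells at 3 w.p.i., and both DKO comparisons listed H3K9me3 sites there. The DKO counts were 15.1, 91.2 and 6.91 against 15.3, 7.16 and 24.6 in WT. Against Daxx-KO they were 14.2, 86.7 and 6.54, beside 14.5, 18.4 and 11.4. The groups overlapped in both, and the high value was that of DKO replicate 3 alone. Why this window was listed for several marks was not tested.

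Losses of H3.3 at 3 w.p.i. were widest 1980 bp from Vmn2r-ps18 (110 and 132 against 321 and 482), the pseudogene that gained H3K9me3 at all 3 times. Pu.1 was lost near Vmn2r-ps19 on the same chromosome (35.5 and 42.1 against 234 and 320). At 24 w.p.i. H3.3 was gained over the exon of Vmn2r-ps61 (287 and 217 against 42.4 and 0) and lost 9945 bp from Olfr531 (15.5 and 3.40 against 192 and 222). Pu.1 was gained near Olfr167 (284 and 348 against 41.7 and 69.5) and lost near Vmn2r-ps20 (28.6 and 19.9 against 216 and 197). Vmn2r-ps18, Vmn2r-ps19 and Vmn2r-ps20 lie on chromosome 4 within a region of pseudogenes and are named by the rule for widest gaps in 5 comparisons.

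The Pu.1 motif GAGGAAGT was searched on both strands of the RefSeq promoters. It occurred in 74 of 206 Vmn1r promoters (35.9%), beside 0.743% of 942 Olfr, 3.42% of 117 Vmn2r and 3.10% of 30131 other promoters. In 72 of the 74 it was on the coding strand, with its median start 33 bases after the annotated start, and in those 72 the annotated start is ATG, so the word lies downstream of a start codon. Of the 74, 7 lay under a Pu.1 site at 24 w.p.i., 3 gained and 4 lost, and of the 132 Vmn1r promoters without it, 5 did. At 3 w.p.i. the numbers were 0 and 1. In the middle 300 bp of receptor Pu.1 sites the word occurred in 1.67% at 3 w.p.i. and 2.02% at 24 w.p.i., beside 2.09% and 2.10% of all Pu.1 sites.

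Pu.1 at these Vmn1r promoters went in both directions at 24 w.p.i. Vmn1r118 had 61.4 and 37.6 in Daxx-KO against 10.1 and 4.21 in WT. Vmn1r101 had 10.9 and 12.5 against 37.4 and 37.9, and Vmn1r149 8.18 and 12.5 against 37.4 and 42.1. The printed promoters of Vmn1r101 and Vmn1r149 are identical over 300 of 300 bases, and Vmn1r118 shares 188 of 300 with either.

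H3K27ac, the mark of active elements, had the lowest densities relative to the autosomes, 0.293 times at 3 w.p.i. and 0.223 times at 24 w.p.i. At 3 w.p.i. 275 of 485 receptor sites (56.7%, 52.3–61.0) were gained, beside 41.3% of all, and at 24 w.p.i. 305 of 704 (43.3%, 39.7–47), beside 42.5%. Among sites of 35% to 45% GC the shares were 62.6% beside 50.1%, and 38.6% beside 34.4%. The mean count per receptor site at 24 w.p.i. was 54.8 and 54.6 in Daxx-KO against 62.5 and 64.7 in WT, and at 3 w.p.i. the groups overlapped. The counts at 3 w.p.i. were low: at 102 of the 485 sites at 3 w.p.i. (21%) both WT libraries were at 0, beside 7.32% of all sites, and at 68 (14%) both Daxx-KO libraries were, beside 9.38%. A count of 0 allows up to 3 reads in a library, which is 3.26 normalized counts for WT here. At the site with the most signal on the other side, near Vmn1r-ps32, Daxx-KO had 7.75 and 66.3, at least 11.3-fold higher than that floor.

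The H3K27ac sites with the widest gaps lay outside the receptor gene in 3 of 4 cases. Olfr279 on chromosome 15, 6702 bp from its site, had 359 and 395 in Daxx-KO against 201 and 190 in WT at 3 w.p.i., and Olfr1359 on chromosome 13, 9268 bp from its site, had 116 and 85.8 against 271 and 210. At 24 w.p.i. a site 5071 bp from Olfr372 had 1433 and 1314 against 499 and 532, and a site inside Olfr56 278 and 291 against 592 and 546. As for the other sites with the widest gaps, the rule that picked these 4 required groups that do not overlap. Overlapping H3K27ac sites of 3 and 24 w.p.i. agreed in 57.9% of 95 pairs, beside 59.8% of all.

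Receptors known from tissues other than the nose were looked at whatever their values. Olfr78, a receptor for short-chain fatty acids in kidney and vessels, had 5 H3K27me3 sites at 24 w.p.i., all overlapping the gene and all gained in Daxx-KO cells. The highest of them had 162 and 181 against 107 and 88.5, and the lowest 29.5 and 27.6 against 12.1 and 8.57. H3.3 was also gained at 4 of 4 sites of Olfr78 at 24 w.p.i., but at 3 w.p.i. its single H3.3 site was lost, with 0 and 14.7 against 72.2 and 68.1. Olfr90 had 3 lost H3K27me3 sites at 24 w.p.i. and Olfr2 and Olfr1393 1 lost site each, while Olfr16 and Olfr544 had none. Olfr544 had 10 Pu.1 sites at 24 w.p.i., 4 gained and 6 lost.

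The machinery of odorant and pheromone sensing, 27 genes for transcription factors, signalling and silencing of receptors, gave few H3K9me3 sites early and many late. The whole list grew as well, from 57306 autosomal sites at 3 w.p.i. and 65255 at 8 w.p.i. to 150482 at 24 w.p.i. No count by gene was made over all genes, so a late change particular to the 27 is not shown. At 3 w.p.i. 5 of the 27 had only gained sites, 3 only lost and 18 none. At 8 w.p.i. 5 had only gained and 22 none, and at 24 w.p.i. 7 had only gained, 3 only lost and 15 both. Over their sites at 24 w.p.i. 95 were gained and 53 lost (64.2% gained), beside 48.1% of all sites and 32.1% of receptor sites. The gained share of all sites rose with GC content at that time, as described above. No share at like GC content is given for the 27 genes, so the part of GC content in this difference was not tested. Adcy3, the adenylyl cyclase of olfactory cilia, had 90.1, 72.2 and 141 in Daxx-KO against 7.11, 47.5 and 5.06 in WT at 8 w.p.i. At 24 w.p.i. Adcy3 had 3 gained and 3 lost sites, and a gained site had 532 and 793 against 283 and 350. Omp, which encodes the olfactory marker protein, had 5 gained sites at 24 w.p.i., the widest with 48.5 and 133 against 4.66 and 1.87. Cngb1, a subunit of the olfactory cation channel, had 4 gained and 2 lost H3K9me3 sites at 24 w.p.i., and a gained site had 133 and 121 against 18.6 and 35.6. The 3 genes with only lost sites at that time were Cbx3 with 3, Trpc2 with 2 and Cnga4 with 1.

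For H3K27me3 at 24 w.p.i. all 13 sites of Cngb1 were lost, the widest with 19.1 and 55.2 in Daxx-KO against 121 and 114 in WT. Lhx2, a LIM-homeodomain factor that binds receptor enhancers, had 12 lost and 2 gained sites. Gnao1, the G protein of Vmn2r neurons, had 32 gained and 9 lost sites. Over the 27 genes 173 sites were gained and 155 lost, 52.7% gained beside 41.2% of all. By gene, 6 had only lost sites, 19 both and 2 none. In DKO cells at 8 w.p.i. the same list had 61 gained and 162 lost against WT, 27.4% gained beside 55.1% of all. Among the lost sites 72 were at Ebf1, an olfactory and B-lineage transcription factor, 30 at Ebf3, 23 at Ano2 and 15 at Ebf2. Counted by gene the balance was the other way: 9 of the 27 had only gained sites, 1 only lost, 7 both and 10 none. The H3K27ac list at 24 w.p.i. had 137 gained and 186 lost sites, 42.4% gained beside 42.5% of all.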

How the data were processed

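CUT&Tag libraries of H3K9me3, H3K27me3, H3.3, Pu.1 and H3K27ac were trimmed and aligned by the authors to mm10 (cutadapt 1.13, STAR 2.5.3 and bedtools in the submitters' processing notes, with CASAVA 1.8.4 for base calls). The deposited tables are lists of changed sites from diffReps 1.55.6, which, per the file headers, slid a 600-bp window in 50-bp steps with 100-bp fragments, applied a negative binomial test and kept windows at a cutoff of 0.0001. Per the file headers, the deposited values are normalized counts, reads divided by a constant of each library; dividing back gave whole reads at all low counts checked, within 0.05 reads plus 0.01 per count. The tables of 24 w.p.i. leave out reads of X and Y. Group means, fold changes, p-values and directions that the authors put in the same tables were not used.

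Here, sites within 10 kb of a receptor gene (GENCODE M21) were taken from 14 of 15 tables, and direction was set by the group means of the library counts, with an offset of 1 normalized count for log2. Samples were grouped by the genotype, antibody and time in the labels, with 2 or 3 libraries per group. The libraries of a comparison came from different mice as far as the labels number them (1 WT library each of H3.3 and Pu.1 at 3 w.p.i. names no mouse), and their depth is given in the text. Shares have Wilson 95% intervals, and a count of 0 was read as under 3 reads. Clusters joined genes within 500 kb. The sites named are, per table and direction, that with the widest gap between groups that do not overlap, receptor genes with H3K9me3 sites of 1 direction at 3, 8 and 24 w.p.i. (up to 8 per direction, by number of sites), clusters of at least 20 genes, and Olfr78, Olfr2, Olfr544, Olfr1393, Olfr16 and Olfr90. The members, lists and named genes were chosen with earlier results of these data known. Alternatives changed the distance, the gene type, the sites kept, the weight of clusters and the libraries. Counting was tested on simulated data. Analyses used Python 3.11.15, numpy 2.4.6, pandas 2.3.3, scipy 1.17.1 and matplotlib 3.10.9, and sequences are from RefSeq on GRCm38.p6. Results that rest on certain withheld sequences are not reported here.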

Additional observations from a re-analysis of the deposited data

Results flagged for a closer look

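The mean H3K9me3 count over listed receptor sites was higher in every Daxx-KO library than in WT at the early times and lower at the late time. These means run over sites listed for a difference between the groups, so they follow the balance of gained and lost sites and do not give the level over whole clusters. At 3 w.p.i. the mean normalized count per listed receptor site was 20.8 and 22.3 in the Daxx-KO libraries, above the 12.1 and 11.5 of the WT libraries. At 8 w.p.i. it was 16.7, 22.8 and 15.8 in Daxx-KO, above the 11.4, 13 and 15.4 of WT. At 24 w.p.i. it was 52.3 and 54.4 in Daxx-KO, below the 69.6 and 62.0 of WT. The difference between the times was not tested, since each table has its own list of sites and its own scale. Over all autosomal sites the Daxx-KO libraries had means of 24.8 and 26.4 at 3 w.p.i. (WT 21.7 and 21.5) and of 18.9, 23.7 and 18.0 at 8 w.p.i. (WT 13.5, 15.1 and 16.1), and of 74.5 and 84.8 at 24 w.p.i. (WT 91.1 and 79.6), where the groups overlapped.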

How the results depend on the processing

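No paired analysis was possible because the shares come from no test and equal replicate numbers mark different mice. The gained shares of 14 comparisons were recomputed under each alternative. Requiring a 2-fold change, or joining sites within 1 kb, moved none of the 14 beyond its interval. With sites that overlap a receptor gene only, the gained share moved to 85.8% (H3K9me3 at 3 w.p.i.), 88.4% and 77.6% (H3K9me3, DKO against WT and against Daxx-KO), 47.9% (H3.3 at 3 w.p.i.) and 43.5% (Pu.1 at 3 w.p.i.). Within 50 kb it moved to 78.3%, 58.6% and 35.1% (H3K9me3 at 3, 8 and 24 w.p.i.), 81.5% (DKO against WT), 43.1% (H3K27me3 at 24 w.p.i.), 58.3% (H3.3 at 3 w.p.i.), 57.8% (Pu.1 at 3 w.p.i.) and 50.6% (H3K27ac at 3 w.p.i.). Protein-coding genes alone gave 51.9% for H3K27me3 at 24 w.p.i. Sites whose groups did not overlap gave 77.4% and 64.5% (H3K9me3, DKO against WT and against Daxx-KO). A higher group mean of at least 20 gave 78.9% and 67.3% (H3K9me3 at 3 and 8 w.p.i.), 81.4% and 68.6% (DKO), 62.7% (H3K27me3, DKO against WT) and 64.9% (H3K27ac at 3 w.p.i.). Equal weight per cluster gave 79.7%, 67.9% and 41.7% (H3K9me3 at 3, 8 and 24 w.p.i.), 56.9% and 51.8% (H3.3 at 3 and 24 w.p.i.) and 56.2% and 52% (Pu.1). Sites of 35% to 45% GC gave 90.9% and 24.3% (H3K9me3 at 3 and 24 w.p.i.), 91.3% and 83.5% (DKO), 67% (H3K27me3, DKO against WT), 54.8% (H3K27me3 at 24 w.p.i.), 30.2% (H3.3 at 3 w.p.i.), 27.5% and 60.8% (Pu.1 at 3 and 24 w.p.i.), and 62.6% and 38.6% (H3K27ac). Sites under 50% soft-masked gave 88.2% (H3K9me3 at 3 w.p.i.), 92.0% and 77.0% (DKO), 41% (H3.3 at 3 w.p.i.), 39.3% (Pu.1 at 3 w.p.i.), and 51.4% and 39.4% (H3K27ac). For H3K9me3 at 24 w.p.i., leaving out 5 Mb around Daxx and Spi1 gave 34.4% and leaving out the largest cluster 34.6%, both alternatives chosen after seeing the data. The cause of these shifts was not tested.

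Distance set the number of sites. In the order of the plot of directions by comparison, counting H3K9me3 (3, 8 and 24 w.p.i., DKO against WT, DKO against Daxx-KO), H3K27me3 (DKO against WT, DKO against Daxx-KO, 24 w.p.i.), H3.3, Pu.1 and H3K27ac (each 3 and 24 w.p.i.), overlapping sites numbered 451, 535, 780, 370, 331, 232, 237, 356, 390, 1009, 416, 887, 210 and 301, and those within 50 kb 2736, 3225, 4604, 2621, 2470, 835, 803, 1529, 2049, 4676, 2177, 4228, 1082 and 1704.

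Leaving out 1 library at a time gave gained shares of 83.3% to 83.5% for H3K9me3 at 3 w.p.i., 62.9% to 63.6% at 8 w.p.i., 31.7% to 32.8% at 24 w.p.i., 78.0% to 84.4% in DKO against WT and 67.5% to 72.8% in DKO against Daxx-KO. For H3K27me3 they were 58.0% to 58.0% and 61.9% to 62.5% (DKO against WT and against Daxx-KO) and 47.8% to 48.3% at 24 w.p.i. At 3 and 24 w.p.i. they were 53% to 53.1% and 53.4% to 53.9% for H3.3, 51.5% to 52% and 55.3% to 55.7% for Pu.1, and 56.3% to 56.9% and 43.2% to 43.6% for H3K27ac. The tables hold changed sites only, and sites were listed with all libraries present, so these ranges cannot show which sites would be listed without a library.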

Other observations

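Some facts of the receptor promoters stand outside the comparisons. TAATTA, a homeodomain-type word searched on both strands, occurred in 18.7% of the 942 Olfr promoters from RefSeq and in 4.79% of 30131 promoters of other genes. The palindrome-like word CCCNNGGG, of the kind bound by Ebf factors, occurred in 3.08% of Olfr promoters and 14.3% of the others. Few of the 1265 receptor promoters lay under a listed site, from 1.66% to 8.85% per comparison. H3.3 at 24 w.p.i. had 204 receptor sites at 0 in both Daxx-KO libraries (7.74%, beside 6.38% of all), such as a site near Vmn2r57 with 72.0 and 220 in WT, at least 43.5-fold lower in Daxx-KO at the floor of 3 reads per library.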
